A study of Mus musculus with 11 samples.

Results

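A set of 9 genes of the tumour necrosis factor (TNF) system was followed in mouse lung fibroblasts: the receptors Tnfrsf1a, Tnfrsf1b, Tnfrsf11b, Tnfrsf12a, Tnfrsf10b, Tnfrsf21, Fas and Ltbr, and the ligand Tnfsf15. They were taken by symbol, which gave all 9 among 32868 gene symbols. The series holds 11 bulk RNA-seq libraries of primary fibroblasts from neonatal mouse lung, 6 from wild-type mice (WT) and 5 labelled PAD2KO, for loss of peptidylarginine deiminase 2, the enzyme encoded by Padi2 that turns protein arginine into citrulline. The WT libraries are numbered 1, 3 and 4 in batch 1 and 5, 6 and 7 in batch 2. The PAD2KO libraries are numbered 1, 2 and 3 in batch 1 and 6 and 7 in batch 2. The cells were sorted by flow cytometry. The sources used here do not give the gate, the strain, the exact age or the knockout allele. The series title speaks of basal and TNF-induced expression, but the labels name no treatment and do not say whether a batch stands for one. A batch difference below is therefore a difference between libraries so labelled, and its source cannot be told apart.

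TNF binds a pair of receptors. TNFR1, encoded by Tnfrsf1a, carries an intracellular death domain, is made by most cells, and through TRADD, RIPK1 and TRAF2 leads to NF-kB activation or, when survival signals fail, to cell death. TNFR2, encoded by Tnfrsf1b, lacks a death domain, recruits TRAF2 directly and is made by fewer cell types. The other receptors divide into death receptors (Fas, the TRAIL receptor encoded by Tnfrsf10b, and DR6, encoded by Tnfrsf21), TRAF-binding receptors that act partly through non-canonical NF-kB (the lymphotoxin beta receptor, Ltbr, and the TWEAK receptor Fn14, encoded by Tnfrsf12a) and a secreted decoy (osteoprotegerin, encoded by Tnfrsf11b, which binds RANKL). TL1A, encoded by Tnfsf15, is a ligand of the death-domain receptor DR3.

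The libraries held 962633 to 1421243 counts of named genes, so that a gene at 0 counts could still stand at 2.11 to 3.12 CPM (counts scaled to equal library totals), a limit for counting error alone. No label ties a library to its own animal or culture, and the p-values therefore measure the spread between libraries, which may be technical. Padi2 had 0 to 2 counts per library in WT and 0 to 4 in PAD2KO, too few to test the labelled genotypes. All 9 fibroblast markers had counts, with a summed level of 4481 to 14980 CPM, and the lower values were those of batch 2. Of 10 leukocyte markers, 9 had counts, and their sum was 24.2 to 63.1 CPM in WT of batch 1, 34.5 to 65.0 in PAD2KO of batch 1, 121 to 311 in WT of batch 2 and 77.1 to 120 in PAD2KO of batch 2. Their defining member Ptprc had 0 to 4 counts in each library. Smooth muscle and pericyte markers, 7 of 7 with counts, summed to 6314 to 6853, 4766 to 7271, 1598 to 1906 and 3800 to 4786 CPM in the same order. Mesothelial markers, 6 of 6 with counts, summed to 301 to 496, 165 to 426, 67.6 to 136 and 89.0 to 131 CPM, endothelial markers, 7 of 7 with counts, to at most 12.9 CPM in any library, and epithelial markers, 5 of 7 with counts, to at most 41.9 CPM. In bulk RNA fewer cells of a type and less RNA per cell cannot be told apart.

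On the length-scaled TPM scale, which allows levels to be compared between genes, Tnfrsf12a stood highest of the 9 with a median of 271 TPM over the 11 libraries (range 208 to 399). Tnfrsf1a followed at 160 TPM (105 to 212), and Tnfrsf12a was above it in each of the 11 libraries. Ltbr had a median of 45.0 TPM (35.1 to 59.0). Fas (24.8 TPM, 12.6 to 47.6), Tnfsf15 (22.9 TPM, 6.53 to 42.7) and Tnfrsf1b (21.9 TPM, 7.14 to 39.7) lay close together with ranges that overlapped one another and that of Ltbr. Tnfrsf10b had 13.3 TPM (7.25 to 19.8) and Tnfrsf11b 6.46 TPM (5.11 to 31.5). Tnfrsf21, at 1.5 TPM (0.721 to 4.68), was the lowest and was the 1 member too low for the tests. Apart from this paragraph and where TPM is named, levels are CPM scaled between libraries (normalised CPM) and are compared within a gene only.

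**Figure D1:**
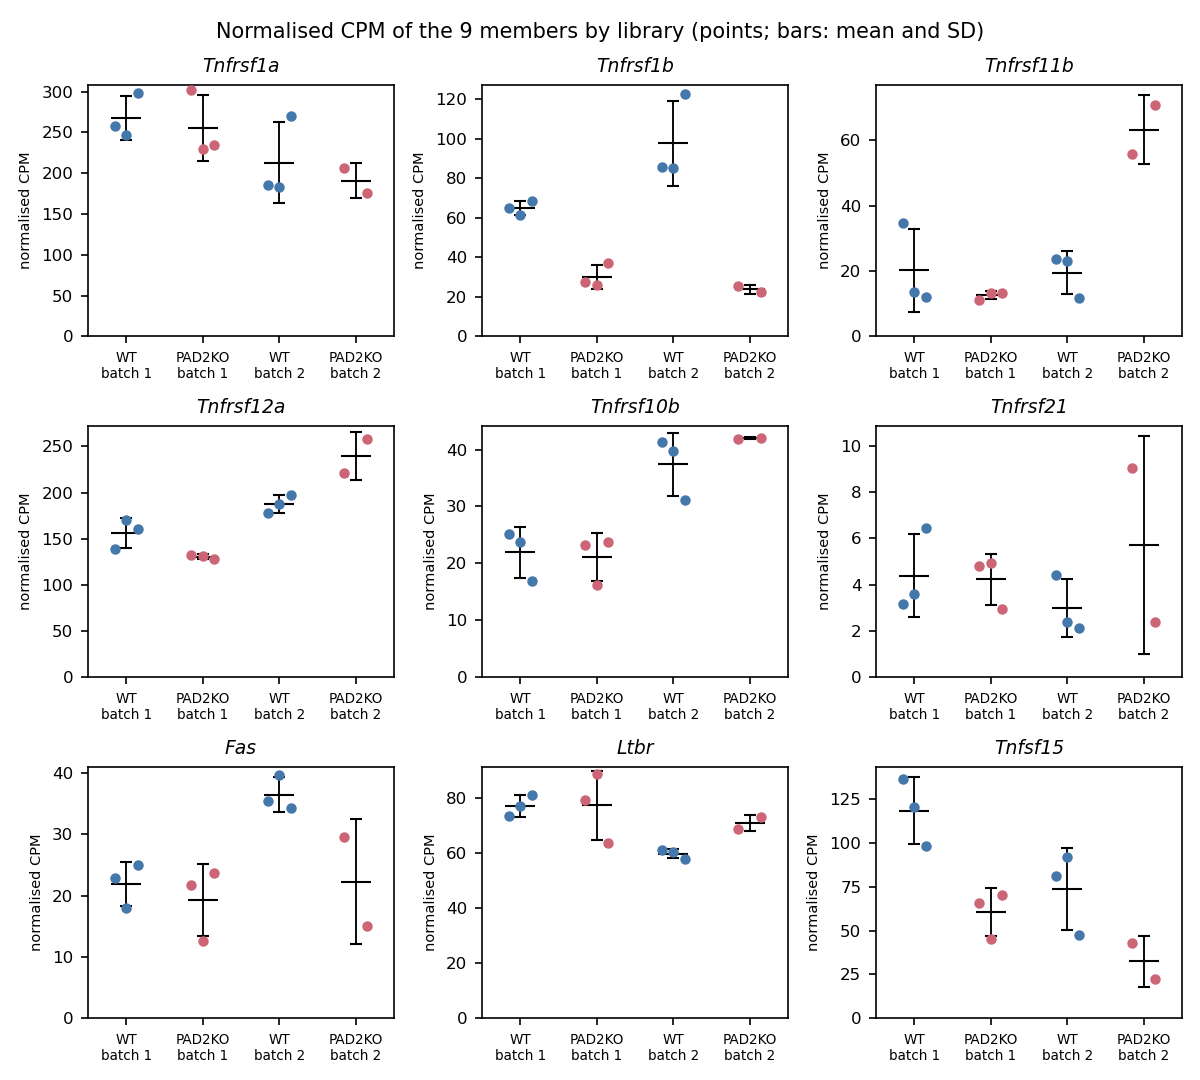
Normalised CPM (vertical axes, from 0) of each of the 9 members in WT (blue) and PAD2KO (red) libraries of batch 1 and batch 2; each point is a library, and the black bars give the mean and SD. Tnfrsf1b and Tnfsf15 show PAD2KO points below all WT points of the same batch, Tnfrsf11b is highest in the 2 PAD2KO libraries of batch 2, and the Tnfrsf1a points of the genotypes overlap in both batches.

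Across both batches PAD2KO libraries had less mRNA of Tnfrsf1b and Tnfsf15, and no difference was detected for the other 6 members tested, the main TNF receptor Tnfrsf1a among them. These were 0 members higher and 2 lower of 8 tested, where 0.191% of all 9932 genes tested were called, 0.0201% higher and 0.171% lower (edgeR, quasi-likelihood test with a batch term, Benjamini-Hochberg adjusted p under 0.05). The members, like the gene lists below, were chosen with earlier results of these data known, so no count of calls tests a set. DESeq2 called the same 2 members, whereas with offsets for the deposited gene lengths edgeR called 0 members. The Tnfsf15 call held in 6 of the 11 fits that each left out a library. In the main edgeR fit, at an unadjusted p under 0.05, 0 members were higher and 3 lower, a level that 7.64% of all genes reached. The members' median log2 fold change was -0.04, beside -0.00 over all genes. In batch 1, 0 members were called higher and 1 lower (Tnfrsf1b), where 0.131% of all genes were called, 0.0201% higher and 0.111% lower. In batch 2, 1 was higher (Tnfrsf11b) and 1 lower (Tnfrsf1b), where 3.11% of all genes were called, 1.4% higher and 1.71% lower. A test of whether the genotype difference itself differed between the batches called 1 member, Tnfrsf11b, more positive in batch 2 and 0 more negative, where 1.62% of all genes were called, 0.665% and 0.957% in these directions. WT 5 and WT 6 were the most alike libraries of a group, yet their counts differed beyond sampling noise, and both were kept.

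The pair of TNF receptors is described first. The 250 bases before the RefSeq start of each gene are shown because Tnfrsf1b and Tnfsf15 fell in PAD2KO over both batches and Tnfrsf1a is the receptor set beside Tnfrsf1b, with capitals marking matches to the motifs searched on both strands: the GC box GGGCGG, the TATA box TATAAA, the NF-kB type GGGNNNNNCC and the AP-1 type TGANTCA (RefSeq, GRCm38.p6, 5′ to 3′ on the strand of the gene; 7 of the 9 members were in the RefSeq table used).
Tnfrsf1a, chr6:125349473-125349722, plus strand: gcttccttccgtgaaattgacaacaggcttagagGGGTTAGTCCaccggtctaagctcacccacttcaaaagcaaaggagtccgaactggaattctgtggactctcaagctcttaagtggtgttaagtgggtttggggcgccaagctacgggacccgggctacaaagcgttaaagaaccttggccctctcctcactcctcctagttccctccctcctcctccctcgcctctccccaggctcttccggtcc
Tnfrsf1b, chr4:145246871-145247120, minus strand: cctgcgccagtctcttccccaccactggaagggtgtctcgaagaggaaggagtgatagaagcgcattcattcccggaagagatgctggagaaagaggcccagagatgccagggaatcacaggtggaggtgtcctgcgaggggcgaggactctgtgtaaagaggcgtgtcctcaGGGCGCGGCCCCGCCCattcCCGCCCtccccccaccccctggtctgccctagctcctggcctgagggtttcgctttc
Tnfsf15, chr4:63745060-63745309, minus strand: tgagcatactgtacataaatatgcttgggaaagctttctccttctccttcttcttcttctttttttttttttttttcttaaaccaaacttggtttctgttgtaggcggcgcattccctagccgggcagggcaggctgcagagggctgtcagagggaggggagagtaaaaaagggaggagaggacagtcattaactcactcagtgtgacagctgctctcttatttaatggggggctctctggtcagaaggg
The Tnfrsf1a sequence held 1 match of the NF-kB type, with no GC box, TATA box or AP-1 match. The Tnfrsf1b sequence held 2 GC boxes and 3 matches of the NF-kB type, which overlap one another and 1 of the GC boxes in a GC-rich stretch. The Tnfsf15 sequence held none of the 4 motifs. Of 32851 RefSeq promoters of the same length, 32.7% held the GC box, 12.4% the TATA box, 45.8% the NF-kB type and 6.75% the AP-1 type, so that matches to the GC box and the NF-kB type are common. A match is a description of the letters and not a site shown to be used.

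Tnfrsf1a, the broadly made TNF receptor with a death domain, showed no detectable difference between the genotypes. It had 258, 247 and 298 CPM in WT 1, WT 3 and WT 4, and 302, 229 and 235 CPM in PAD2KO 1, PAD2KO 2 and PAD2KO 3. In batch 2 it had 185, 183 and 271 CPM in WT 5, WT 6 and WT 7, and 206 and 176 CPM in PAD2KO 6 and PAD2KO 7. The genotypes overlapped in both batches, and WT 7 stood above the other libraries of batch 2. The log2 fold change, PAD2KO against WT, was -0.07 in batch 1 (95% interval -0.36 to 0.22, edgeR adjusted p = 0.994) and -0.15 in batch 2 (-0.49 to 0.19, adjusted p = 0.765). Over both batches it was -0.10 (SE 0.109, adjusted p = 0.896).

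Tnfrsf1b, which encodes TNFR2, fell in PAD2KO in both batches. It had 64.7, 61.2 and 68.4 CPM in WT 1, WT 3 and WT 4, and 27.3, 26.0 and 37.1 CPM in PAD2KO 1, PAD2KO 2 and PAD2KO 3. In batch 2 it had 85.6, 85.0 and 122 CPM in WT 5, WT 6 and WT 7, and 25.5 and 22.2 CPM in PAD2KO 6 and PAD2KO 7. On this scale all 5 PAD2KO libraries lay below all 6 WT libraries, with PAD2KO 3 the highest of the 5. On length-scaled TPM the genotypes overlapped, with 23.3 in PAD2KO 3, above the 21.9 of WT 1 and the 20.8 of WT 3. The log2 fold change was -1.10 in batch 1 (SE 0.190, edgeR adjusted p = 0.00584), a level 2.14 times lower, and -2.01 in batch 2 (SE 0.223, adjusted p = 1.63e-06), a level 4.03 times lower. Over both batches it was -1.48 (SE 0.170, adjusted p = 8.58e-05). The larger size in batch 2 did not pass its own test (difference -0.91, SE 0.302, adjusted p = 0.148).

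The Tnfrsf1b call over both batches and that in batch 2 held in all 11 fits that each left out a library. That in batch 1 ended without PAD2KO 2, at -0.99 (adjusted p = 0.0879). The deposited effective length of Tnfrsf1b, the transcript length the authors' quantification attached to it, ranged from 1983 bases in PAD2KO 3 to 3604 bases. With offsets for these lengths the differences were -1.37 over both batches (adjusted p = 0.332), -0.76 in batch 1 (adjusted p = 0.918) and -2.20 in batch 2 (adjusted p = 0.0173), so that the first 2 were no longer called. With the offsets and PAD2KO 3 left out, an alternative chosen after seeing the data, they were -1.73 over both batches (adjusted p = 0.00984) and -1.28 in batch 1 (adjusted p = 0.274). Leukocyte markers overlapped between the genotypes in batch 1, at 24.2 to 63.1 CPM in WT and 34.5 to 65.0 CPM in PAD2KO. In batch 2 they were at 121, 127 and 311 CPM in WT 5, WT 6 and WT 7, and WT 7 also had the highest Tnfrsf1b. They were lower in PAD2KO of batch 2, at 120 CPM in PAD2KO 6 and 77.1 CPM in PAD2KO 7. The part of these markers in the result was not tested.

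Between batches, Tnfrsf1b rose in WT, while the lower levels in PAD2KO did not pass. In WT it rose by 0.58 on the log2 scale from batch 1 to batch 2 (SE 0.165, edgeR adjusted p = 0.0112), with all 3 libraries of batch 2 above all 3 of batch 1. This call ended without WT 3 (0.54, adjusted p = 0.0559), without WT 7 (0.40, adjusted p = 0.0973) and with length offsets (0.76, adjusted p = 0.110). In PAD2KO the 2 libraries of batch 2 lay below the 3 of batch 1, at -0.34, which did not pass (SE 0.253, adjusted p = 0.399). Tnfrsf1a was lower in batch 2 at -0.34 in WT (adjusted p = 0.0961) and -0.42 in PAD2KO (adjusted p = 0.0765), neither of them called, and without WT 7 both passed, at -0.53 (adjusted p = 0.00391) and -0.42 (adjusted p = 0.0262).

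The balance of the 2 receptors was read as the ratio of their counts within a library. This ratio needs no scaling for library depth but is not adjusted for the deposited gene lengths. Tnfrsf1a had 3.97, 4.02 and 4.33 counts for each count of Tnfrsf1b in WT 1, WT 3 and WT 4, and 10.9, 8.71 and 6.27 in PAD2KO 1, PAD2KO 2 and PAD2KO 3. In batch 2 the ratio was 2.16, 2.15 and 2.21 in WT 5, WT 6 and WT 7, and 7.98 and 7.77 in PAD2KO 6 and PAD2KO 7. WT of batch 2 had the lowest count ratios of the 4 groups, and all 5 PAD2KO libraries were above all 6 WT libraries. Over both batches the ratio was 2.73 times higher in PAD2KO, a difference of 1.45 in mean log2 ratio (exact permutation test within batches, two-sided p = 0.005, the smallest that 200 splits can give; p = 0.03 adjusted over 6 comparisons). The ratio was 2.05 times higher in batch 1 and 3.63 times higher in batch 2, each with an exact permutation p of 0.1, the smallest these groups allow.

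The mean log2 ratio was 2.04 ± 0.07 in WT of batch 1 (SD, n = 3), 1.12 ± 0.02 in WT of batch 2 (n = 3), 3.07 ± 0.40 in PAD2KO of batch 1 (n = 3) and 2.98 ± 0.03 in PAD2KO of batch 2 (n = 2). The ratio thus differed by -0.92 between the batches in WT (exact permutation p = 0.1, the smallest allowed) and by -0.09 in PAD2KO (exact permutation p = 0.7). The difference between these batch differences was 0.82 (exact permutation test, p = 0.46). That test permuted the genotype labels within each batch, so its splits carry the genotype difference itself. It therefore cannot decide whether the batch differences of WT and PAD2KO differ. As a ratio of length-scaled TPM, PAD2KO 3, with its short Tnfrsf1b length, had 6.85, below the 7.41 to 8.79 of WT in batch 1, while the other 4 PAD2KO libraries had 14.7 to 20.6. For the genotype difference of this TPM ratio in batch 1 the exact permutation p was 0.4. In batch 2 the WT libraries spread more on this scale than on counts, with 2.80 in WT 5, 4.15 in WT 6 and 4.10 in WT 7. WT 5 also had a short deposited Tnfrsf1b length, 2462 bases, and the lowest TPM ratio of all 11 libraries.

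**Figure D2:**
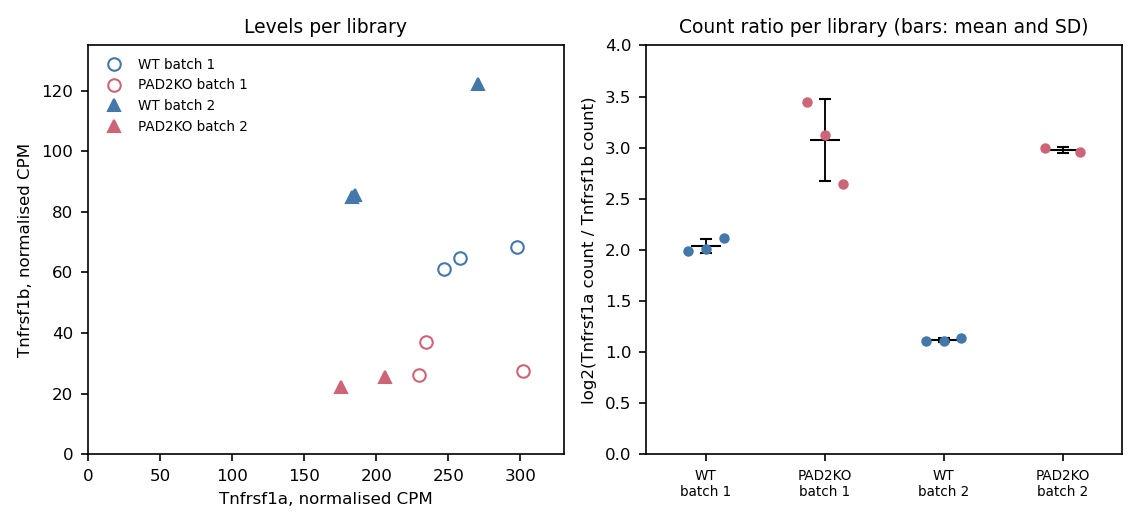
Left, normalised CPM of Tnfrsf1b (vertical axis) against Tnfrsf1a (horizontal axis) in each library, with WT in blue, PAD2KO in red, open circles for batch 1 and filled triangles for batch 2; right, the log2 ratio of the counts of the 2 genes (0.5 added to each) by group, with each point a library and bars for the mean and SD. The PAD2KO points lie below the WT points on Tnfrsf1b while sharing their span on Tnfrsf1a, and the mean log2 ratio is 1.12 to 2.04 in the WT groups and 2.98 to 3.07 in the PAD2KO groups.

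Tnfsf15, the gene of the cytokine TL1A, was the other member that fell in PAD2KO over both batches. It had 136, 120 and 98.2 CPM in WT 1, WT 3 and WT 4, and 65.8, 45.0 and 70.5 CPM in PAD2KO 1, PAD2KO 2 and PAD2KO 3. In batch 2 it had 81.2, 92.1 and 47.2 CPM in WT 5, WT 6 and WT 7, and 42.7 and 22.2 CPM in PAD2KO 6 and PAD2KO 7. PAD2KO lay below WT without overlap within each batch, although in batch 2 the gap between WT 7 and PAD2KO 6 was small. The log2 fold change was -1.06 over both batches (SE 0.188, edgeR adjusted p = 0.0286), a level 2.08 times lower. Within a batch it was of like size but did not pass, at -0.97 in batch 1 (SE 0.241, adjusted p = 0.241) and -1.21 in batch 2 (SE 0.325, adjusted p = 0.0660), and the 2 sizes did not differ detectably (difference -0.24, SE 0.410, adjusted p = 0.887).

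The Tnfsf15 call over both batches held in 6 of the 11 fits that each left out a library. It ended without WT 1 (adjusted p = 0.0771), WT 3 (0.126), WT 5 (0.0902), PAD2KO 1 (0.0546) and PAD2KO 2 (0.0923), with the fold change between -0.92 and -1.15 in all 11. It also ended with length offsets (-1.02, adjusted p = 0.263) and without the batch term (-0.97). With the libraries of shared replicate number blocked by that number the call held, as the only gene called. With the same libraries and no block it ended. Fitted in batch 1 alone it passed (-0.97, adjusted p = 0.00329), and by DESeq2 it passed in batch 2 (-1.19, adjusted p = 0.00583). Its levels in batch 2 lay below those of batch 1 without overlap in both genotypes, at -0.66 in WT (adjusted p = 0.0665) and -0.89 in PAD2KO (adjusted p = 0.0798), neither called by edgeR and both called by DESeq2 (adjusted p = 0.0377 and 0.0330). Tnfrsf25, the gene of its receptor DR3, had 3 counts over all 11 libraries. Mesothelial markers overlapped between the genotypes, at 301 to 496 CPM in WT and 165 to 426 in PAD2KO of batch 1. In batch 2 they were 67.6 to 136 and 89.0 to 131 CPM. PAD2KO 2, WT 7 and PAD2KO 7 were the lowest of their groups on both these markers and Tnfsf15. In WT of batch 1, WT 1 was lowest on the markers and WT 4 on Tnfsf15. The part of these markers in the result was not tested.

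Tnfrsf11b, the gene of the decoy receptor osteoprotegerin, was high in the PAD2KO libraries of batch 2. It had 55.8 and 70.7 CPM in PAD2KO 6 and PAD2KO 7, and 23.6, 23.0 and 11.8 CPM in WT 5, WT 6 and WT 7. In batch 1 it had 34.7, 13.7 and 12.1 CPM in WT 1, WT 3 and WT 4, and 11.2, 13.4 and 13.4 CPM in PAD2KO 1, PAD2KO 2 and PAD2KO 3. WT 1 stood apart from the other libraries of batch 1, where the genotypes overlapped. In batch 2 Tnfrsf11b was 3.14 times higher in PAD2KO (log2 fold change 1.65, SE 0.318, edgeR adjusted p = 0.00393), beside -0.66 in batch 1 (SE 0.361, adjusted p = 0.919).

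The genotype difference of Tnfrsf11b differed between the batches by 2.31 (SE 0.482, edgeR adjusted p = 0.0139). Within PAD2KO it rose 4.96 times from batch 1 to batch 2 (log2 fold change 2.31, SE 0.334, adjusted p = 3.50e-05), a call held in all 11 fits without a library. In WT the batch difference was 0.00 (SE 0.328, adjusted p = 0.998). Without PAD2KO 7 the call in batch 2 ended (1.47, adjusted p = 0.126), as did that of the difference between batches (2.12, adjusted p = 0.112). With length offsets both also ended, at 1.67 (adjusted p = 0.0856) and 2.33 (adjusted p = 0.136). The smooth muscle and pericyte markers were higher in the same 2 libraries than in WT of batch 2, at 3800 to 4786 against 1598 to 1906 CPM. Of 5 tested, 3 were called higher (Acta2, Cnn1 and Myh11) and 0 lower, beside 1.4% and 1.71% of all genes. The part of these markers in the result was not tested. Tnfsf11, the gene of RANKL, which osteoprotegerin binds, had 19 counts over all libraries. It had 7, 4 and 2 in WT 5, WT 6 and WT 7, 0 in WT of batch 1, and 0 to 2 in each PAD2KO library.

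Tnfrsf12a, the gene of the TWEAK receptor Fn14, rose between batches within PAD2KO. It had 132, 132 and 128 CPM in PAD2KO 1, PAD2KO 2 and PAD2KO 3, and 222 and 258 CPM in PAD2KO 6 and PAD2KO 7. In WT it had 139, 171 and 161 CPM in batch 1 and 178, 187 and 198 CPM in batch 2. PAD2KO lay below WT in batch 1 and above it in batch 2, without overlap in either. Neither genotype difference was called, at -0.27 in batch 1 (SE 0.118, edgeR adjusted p = 0.836) and 0.36 in batch 2 (SE 0.125, adjusted p = 0.132). The change between them, 0.62, did not pass (SE 0.172, adjusted p = 0.0603) and passed without WT 1 (0.71, adjusted p = 0.0382) or PAD2KO 6 (0.73, adjusted p = 0.0418). The rise within PAD2KO was 0.88 (SE 0.127, adjusted p = 9.67e-06), held in all 11 fits without a library, and that in WT was 0.25 (SE 0.116, adjusted p = 0.120). Tnfsf12, the gene of its ligand TWEAK, had 63 counts over all libraries.

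Of the death receptors, Tnfrsf10b, the mouse TRAIL receptor gene, rose between batches in both genotypes. It had 25.2, 23.7 and 16.9 CPM in WT and 23.3, 16.2 and 23.8 CPM in PAD2KO of batch 1. In batch 2 it had 41.3, 39.7 and 31.1 CPM in WT and 41.9 and 42.1 CPM in PAD2KO. Every library of batch 2 was above every library of batch 1, and the genotypes were close in each. The rise was 0.78 in WT (SE 0.226, edgeR adjusted p = 0.0122) and 1.00 in PAD2KO (SE 0.244, adjusted p = 0.00427), while the genotype differences were -0.07 in batch 1 (95% interval -0.57 to 0.43) and 0.15 in batch 2 (-0.32 to 0.62). In WT the call ended without WT 4 (adjusted p = 0.0702), without WT 5 (adjusted p = 0.0623), by DESeq2 (adjusted p = 0.0524) and with length offsets (adjusted p = 0.0928), and in PAD2KO with length offsets (adjusted p = 0.0599).

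Fas, which signals through FADD and caspase-8, had 22.9, 18.0 and 25.0 CPM in WT and 21.7, 12.7 and 23.8 CPM in PAD2KO of batch 1. In batch 2 it had 35.4, 39.7 and 34.4 CPM in WT and 29.6 and 15.1 CPM in PAD2KO. All 3 WT libraries of batch 2 stood above the other 8 libraries. In WT Fas rose by 0.74 (SE 0.255, edgeR adjusted p = 0.0352), and in PAD2KO the difference was 0.21 (SE 0.309, adjusted p = 0.710), with PAD2KO 6 and PAD2KO 7 far apart. The difference between these batch changes was not detectable (-0.53, SE 0.401, adjusted p = 0.668), and the genotype difference in batch 2, -0.72, did not pass (SE 0.289, adjusted p = 0.218). The WT call ended without WT 1 (adjusted p = 0.0650), WT 3 (0.153), WT 5 (0.0688) or WT 6 (0.119), by DESeq2 (0.107) and with length offsets (0.0602).

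Tnfrsf21, the gene of DR6, had 2 to 11 counts per library, under the filter for testing, and its 2.15 to 9.03 CPM overlapped between the genotypes in both batches. Ltbr, whose product binds lymphotoxin and LIGHT, had 73.4, 77.0 and 81.3 CPM in WT and 79.5, 88.7 and 63.8 CPM in PAD2KO of batch 1. In batch 2 it had 61.3, 60.4 and 58.0 CPM in WT and 69.0 and 73.1 CPM in PAD2KO. The PAD2KO libraries of batch 2 lay above WT of that batch, but no test of Ltbr passed: the genotype difference was 0.00 in batch 1 (95% interval -0.29 to 0.30) and 0.24 in batch 2 (-0.11 to 0.60), and the batch difference was -0.36 in WT (edgeR adjusted p = 0.0889) and -0.12 in PAD2KO (adjusted p = 0.676).

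**Figure D3:**
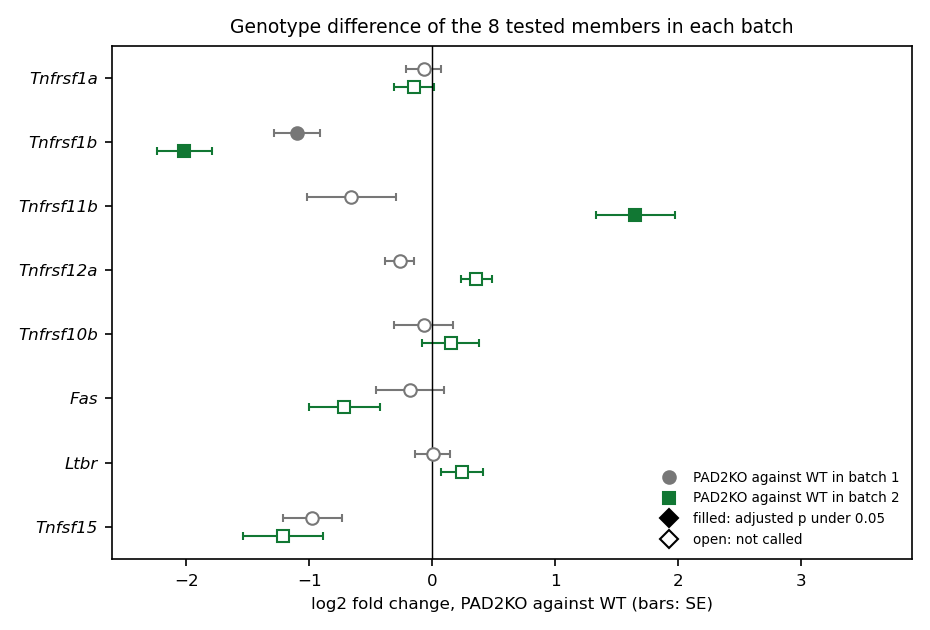
Log2 fold change of PAD2KO against WT (horizontal axis, bars for the SE) of the 8 members tested, in batch 1 (grey circles) and batch 2 (green squares), with filled symbols for an adjusted p under 0.05. Tnfrsf1b is called in both batches, at -1.10 and -2.01, and Tnfrsf11b in batch 2 alone, at 1.65, with the opposite sign in batch 1.

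Between batches more of the genome differed than between genotypes, and the members are read against that. In WT 3 of 8 members tested were higher in batch 2 (Tnfrsf1b, Tnfrsf10b and Fas) and 0 lower, where 22.3% of all genes were called, 11.7% higher and 10.6% lower. In PAD2KO 3 were higher (Tnfrsf11b, Tnfrsf12a and Tnfrsf10b) and 0 lower, where 18.7% of all genes were called, 9.52% higher and 9.13% lower. The members' median log2 change was 0.13 in WT and 0.04 in PAD2KO, beside -0.00 and -0.02 over all genes. Of the members called, Tnfrsf10b was called in both genotypes. At an unadjusted p under 0.05 in edgeR, 4 members were higher and 3 lower in batch 2 in WT, and 3 were higher and 2 lower in PAD2KO, a level that 33.1% of all genes reached in WT and 30.4% in PAD2KO. DESeq2 called 1 higher (Tnfrsf1b) and 1 lower (Tnfsf15) in WT, and the same 3 higher with Tnfsf15 lower in PAD2KO.

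**Figure D4:**
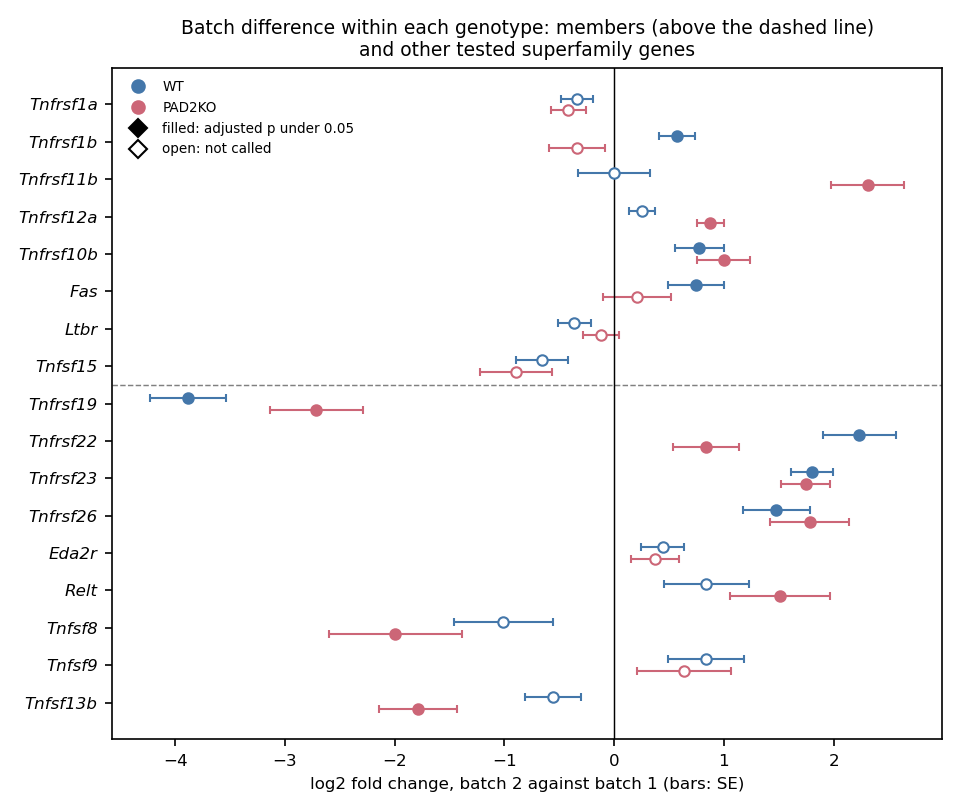
Log2 fold change of batch 2 against batch 1 (horizontal axis, bars for the SE) within WT (blue) and PAD2KO (red), for the 8 members tested above the dashed line and the 9 other receptors and ligands of the superfamily tested below it; filled symbols have an adjusted p under 0.05. Tnfrsf19 lies farthest to the left, at -3.88 in WT and -2.71 in PAD2KO, and Tnfrsf22, Tnfrsf23 and Tnfrsf26 are higher in batch 2 in both genotypes.

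The rest of the receptor family was mostly under the count filter, which grouped libraries by genotype and pooled the batches. Tnfrsf9 was under it despite 39 to 51 counts in WT of batch 2, and its values are given at the end. Of 20 further receptors 6 were tested, with 0 called by genotype by edgeR or by DESeq2. At an unadjusted p under 0.05 in edgeR, 1 was higher and 2 lower over both batches, a level that 7.64% of all genes reached. By batch, Tnfrsf19, the orphan receptor TROY, fell in both genotypes, by 3.88 in WT (edgeR adjusted p = 1.17e-09) and by 2.71 in PAD2KO (adjusted p = 2.73e-05). The neighbouring and closely related genes Tnfrsf22, Tnfrsf23 and Tnfrsf26 rose in both, by 2.23, 1.80 and 1.48 in WT and 0.84, 1.74 and 1.78 in PAD2KO, though reads can be shared between them and the Tnfrsf22 call in PAD2KO (adjusted p = 0.0492) ended in 8 of the 11 fits without a library, at most 0.357 without PAD2KO 7, and by DESeq2 (adjusted p = 0.171). With length offsets the PAD2KO calls of Tnfrsf22 (adjusted p = 0.330) and Tnfrsf23 (1.33, adjusted p = 0.0558) ended. Relt rose in PAD2KO (1.51, adjusted p = 0.0198), which ended without PAD2KO 2, PAD2KO 3 or PAD2KO 7 and by DESeq2.

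Several ligands of these receptors had few counts in the same libraries. Tnf had 2 counts over all 11 libraries, Lta 2, Ltb 0, Fasl 2, Tnfsf10 (TRAIL) 9 and Tnfsf14 (LIGHT) 1. Tnfsf11, with 19 counts, and Tnfsf12 (TWEAK), the ligand of Tnfrsf12a, with 63, had more. Of 17 further ligands 3 were tested. Tnfsf13b, the gene of the B-cell survival factor BAFF, was lower in PAD2KO in batch 2 (-1.47, SE 0.371, edgeR adjusted p = 0.0244), a call that ended without WT 6, WT 7, PAD2KO 6 or PAD2KO 7 (up to adjusted p = 0.268), by DESeq2 (0.0564) and with length offsets (-0.82, adjusted p = 0.411). Within PAD2KO it fell by 1.79 between batches (adjusted p = 0.000524), and Tnfsf8 fell by 1.99 (adjusted p = 0.0220). The Tnfsf8 call ended without PAD2KO 2 or PAD2KO 7, with length offsets (adjusted p = 0.121) and with the genotype fitted alone (adjusted p = 0.0531). Tnfsf8 had 8 counts in PAD2KO 6 and 0 in PAD2KO 7, and its fitted log2 fold change was -1.0 without PAD2KO 7 and -7.08 without PAD2KO 6, the latter against 0 counts and so no measure of size.

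Downstream of the receptors, no listed gene was called by genotype, over both batches or within either, among 25 of 28 adaptors and enzymes tested, 10 of 11 NF-kB subunits and inhibitors, and all 5 shedding genes. DESeq2 also called 0 of them. At an unadjusted p under 0.05 in edgeR, the adaptors and enzymes had 0 higher and 1 lower over both batches, 1 and 1 in batch 1, and 1 and 1 in batch 2. The NF-kB list had 0 and 0, 0 and 0, and 0 and 4 in the same order, and the shedding genes 1 and 0, 0 and 0, and 1 and 1. Of all genes 7.64% over both batches, 5.49% in batch 1 and 14.4% in batch 2 reached that level, in either direction. The 4 lower NF-kB genes of batch 2 were Nfkb2, Nfkbia, Rel and Tnip1. The median log2 fold change of the NF-kB list was -0.23 over both batches, -0.02 in batch 1 and -0.46 in batch 2. Over all genes it was -0.00, -0.00 and -0.01 in the same order. Between batches 5 of the 25 tested adaptors and enzymes were higher in WT and 0 lower, beside 11.7% and 10.6% of all genes. They were Ripk3 (1.11) and Mlkl (1.12), which carry out necroptosis, the caspase-8 regulator Cflar (0.61), Traf4 (1.19) and the ubiquitin ligase gene Birc3 (1.19). In PAD2KO 3 of the 25 were higher, Cflar (0.72), Ripk3 (0.80) and Traf4 (1.29), and 1 lower, Map3k14 (-1.25), the NF-kB-inducing kinase of the non-canonical pathway. Of all genes 9.52% were higher and 9.13% lower in PAD2KO, so the count of higher adaptors there was near the share over all genes. The medians of this list were -0.11 in WT and -0.21 in PAD2KO.

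Of the 10 tested genes of the NF-kB list, 5 were higher and 1 lower in batch 2 in WT, beside 11.7% higher and 10.6% lower of all genes, and the list's median log2 fold change was 0.69. In PAD2KO 3 of the 10 were higher and 1 lower, beside 9.52% and 9.13% of all genes, with a median of 0.19. Tnfaip3, the feedback inhibitor A20, rose by 2.66 in WT and 2.72 in PAD2KO (it fell under the count filter in 3 of the 11 fits without a library), and Nfkbia, which encodes the inhibitor IkB-alpha, by 1.85 and 1.00. Relb (1.13), Rel (1.19) and Nfkb2 (0.72) were called in WT and Nfkb1 (1.08) in PAD2KO, while Tnip2 fell in both (-0.98 and -1.22). Without PAD2KO 6 the rises of Nfkbia (0.37, adjusted p = 0.248) and Nfkb1 (0.60, adjusted p = 0.274) in PAD2KO were no longer called. Of the shedding genes, Timp3, whose product inhibits the TNF receptor sheddase ADAM17, fell by 1.13 in WT and 1.06 in PAD2KO. Rhbdf2, a partner of ADAM17, rose (1.66) and Adam10 fell (-0.89) in WT. Left-out libraries also ended the WT calls of Birc3 (without WT 3), Relb (WT 1 or WT 7) and Rel (WT 3 or WT 6), and the PAD2KO calls of Traf4 and Tnip2 (without PAD2KO 7), Nfkbia (PAD2KO 2) and Map3k14 (PAD2KO 1, PAD2KO 2, PAD2KO 3 or PAD2KO 6, and by DESeq2). With length offsets the calls of Birc3, Cflar, Ripk3, Relb, Rel, Tnfaip3 and Tnip2 in WT ended, and those of Traf4, Map3k14, Ripk3, Tnfaip3 and Tnip2 in PAD2KO.

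The genes whose log2 CPM followed a member most closely over the 11 libraries, among 9845 compared, are given as a description, since all share the batches and the depth of the libraries. Tnfrsf1a ran with Col6a1, a collagen VI chain (Pearson r = 0.963), Meis2 (0.958), Thbs3 (0.954), Mgp (0.946) and Vps18 (0.942). Tnfrsf1b ran with Pdpn, which encodes podoplanin (0.936), Slco2a1, a prostaglandin transporter (0.921), Sall2 (0.908), Rnf213 (0.899) and Fbxo44 (0.898). Tnfsf15 ran with Spint2 (0.928), Rnf113a2 (0.915), Wt1, one of the mesothelial markers (0.893), Spsb1 (0.892) and C1qtnf1 (0.890). In the gene order of GENCODE M21 (GRCm38), 2 of the 9 members, Tnfrsf1b and Tnfsf15, lie on chromosome 4, which also holds Padi2 and 9 of the 46 superfamily genes listed. Between Padi2 and Tnfrsf1b lie 75 protein-coding genes, and between Padi2 and Tnfsf15, on its other side, 692. Tnfrsf1b and Tnfsf15 are also the 2 members called lower in PAD2KO over both batches. The part of their position in that result was not tested. Tnfrsf1a and Ltbr lie on chromosome 6 on either side of Scnn1a, Tnfrsf12a and Tnfrsf21 on chromosome 17, and Tnfrsf11b, Tnfrsf10b and Fas on chromosomes 15, 14 and 19.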

How the data were processed

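The authors deposited a table of estimated counts, TPM and effective gene lengths for 11 libraries, per the file headers. The submitters' processing notes name fastp, Salmon 1.3.2, DESeq2 1.46.0 and GRCm39, without roles. Libraries were made with a SMARTer kit without molecular identifiers, per the labels' protocols, so copies of a molecule count as separate reads, and no source used here says whether counting used strand. Of 56065 entries, 23133 without a symbol (3.8% to 6.4% of counts) were left out. The deposited estimated counts were summed per symbol (55 symbols had several entries) and rounded. The deposited TPM were used for levels between genes. edgeR 4.0.16 in R 4.3.3 (TMM, filterByExpr by genotype, 9932 genes, robust quasi-likelihood test, Benjamini-Hochberg adjusted p under 0.05) used batch as a term over both batches and the 4 group means otherwise. Every adjusted p is from edgeR unless DESeq2 (1.42.0) is named. Exact permutation tests were two-sided (SciPy 1.17.1). The code was tested on simulated data. All 9 members were named whatever their values, as were listed genes past the threshold (at most 5 per list and comparison) and the 5 most alike genes of Tnfrsf1a, Tnfrsf1b and Tnfsf15 (mean log2 CPM of at least 3, prior count 2). Members and lists were chosen with earlier results of these data known. Alternatives were DESeq2, other size factors, no count filter, length offsets, no batch term, single batches or genotypes, the replicate block and each library left out.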

Additional observations from a re-analysis of the deposited data

Results flagged for a closer look

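The genotype difference of Tnfrsf11b differed between the batches. The difference was 2.31 on the log2 scale (2.3076, edgeR adjusted p = 0.0139), from -0.66 in batch 1 to 1.65 in batch 2. Both PAD2KO libraries of batch 2 were above all 3 WT libraries of that batch, and all 3 PAD2KO libraries of batch 1 were below the WT mean of theirs. The WT mean of batch 1 includes WT 1, at 34.7 CPM, and without WT 1 the difference in batch 1 was -0.02.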

How the results depend on the processing

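Over both batches and in each batch, Tnfrsf1b and Tnfsf15 were lower in PAD2KO under every alternative run. Counts of 11 to 89 per library for Tnfrsf11b, Tnfrsf10b and Fas, and groups of 2 or 3 libraries, limit the precision. Genes called over both batches went from 19 to 30 with DESeq2, 142 with no count filter, 2 with length offsets, 4 with no batch term, 1 with the replicate block, 9 with the same 8 libraries and no block, and 3 with length offsets without PAD2KO 3. In batch 1 they went from 13 to 58 with no filter, 2 with length offsets, 6 with the replicate block, 22 with the batch fitted alone and 1 with length offsets without PAD2KO 3. In batch 2 they went from 309 to 529 with no filter and 89 with length offsets. For the interaction they went from 161 to 323 and 26 in the same order, for the WT batches from 2212 to 1356 with length offsets, and for the PAD2KO batches from 1853 to 1219 with DESeq2 and 864 with length offsets. Members called over both batches went from 2 to 0 with length offsets and 1 with no batch term, with the replicate block, with the same 8 libraries and no block, and with length offsets without PAD2KO 3. In batch 1 they went from 1 to 2 with no filter or the batch fitted alone, and to 0 with length offsets, with the replicate block, and with length offsets without PAD2KO 3. With length offsets they went from 2 to 1 in batch 2, from 1 to 0 for the interaction and from 3 to 0 for the WT batches. With no filter they were 2 for the interaction, 5 for the WT batches and 5 for the PAD2KO batches. The cause was not tested, apart from the fewer libraries of the block.

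Leaving out each library in turn gave 8 to 26 genes over both batches, 5 to 20 in batch 1, 65 to 371 in batch 2, 33 to 233 for the interaction, 1708 to 2303 for the WT batches and 1079 to 1947 for the PAD2KO batches. Members called were 1 to 2, 0 to 2, 1 to 3, 0 to 2, 1 to 4 and 3 to 5 in the same order. The log2 ratio of Tnfrsf1a to Tnfrsf1b was 1.35 to 1.55 higher in PAD2KO over both batches. Its batch difference in PAD2KO was -0.307 to 0.0927, and as a TPM ratio 0.16.

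WT and PAD2KO share the replicate numbers 1, 3, 6 and 7, but no label says that these pair the libraries. The deviations of same-numbered libraries from their group means correlated at 0.0487, 0.0104, 0.0297 and 0.00152. With groups of 2 or 3 libraries such values are tied to each other, as WT 6 had 0.0297 with PAD2KO 6 and -0.0297 with PAD2KO 7. They cannot decide whether the libraries are paired. With the replicate block, Tnfrsf1b was at -1.51 over both batches (adjusted p = 0.15) and -0.96 in batch 1 (adjusted p = 0.317), and the log2 ratio at 1.45 (exact permutation p = 0.125, the smallest that 4 pairs allow).

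Differences near 0 changed sign. Over both batches Tnfrsf10b was at -0.0189 with no batch term and from -0.0114 to 0.136 without a library, and Tnfrsf12a from -0.0786 to 0.0926. In batch 1 the replicate block gave 0.0830 for Tnfrsf1a, 0.167 for Fas and -0.0716 for Ltbr, and Ltbr was at -0.0013 with DESeq2, -0.0008 with other size factors and -0.0464 with length offsets. Without a library in turn, Tnfrsf1a was from -0.205 to 0.0199 in batch 1, from -0.266 to 0.0478 in batch 2 and from -0.197 to 0.117 for the interaction. Likewise Fas was from -0.363 to 0.0631, Ltbr from -0.106 to 0.125 and Tnfrsf10b from -0.216 to 0.100 in batch 1, Fas from -0.346 to 0.607 for the PAD2KO batches, and Tnfsf15 from -0.774 to 0.156 for the interaction. For the WT batches Tnfrsf11b was at -0.0196 with DESeq2, -0.0083 with no filter, -0.0276 with length offsets, -0.0008 with the genotype fitted alone, and from -0.249 to 0.629 without a library.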

Other observations

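Tnfrsf9, the gene of the costimulatory receptor 4-1BB, was under the count filter and was chosen here after its values were seen. It had 1, 2 and 1 counts in WT 1, WT 3 and WT 4, and 51, 41 and 39 counts in WT 5, WT 6 and WT 7. In PAD2KO it had 2, 6 and 4 counts in batch 1, and 37 counts in PAD2KO 6 beside 8 in PAD2KO 7. In the fit with no count filter it was higher in batch 2 by 5.04 in WT (edgeR adjusted p = 1.28e-24) and by 2.59 in PAD2KO (adjusted p = 8.56e-07) on the log2 scale. The genotype difference in batch 2, -0.99, did not pass (adjusted p = 0.0772), and the 2 PAD2KO libraries of batch 2 were far apart.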
